A study of Homo sapiens with 6 samples.

Results

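Semaphorins, plexins and neuropilins form a family of guidance ligands and their receptors, and 31 protein-coding genes of it were read from an RNA sequencing experiment in DCIS.COM cells that covered 58676 genes. The members were taken by gene symbol: 20 semaphorins of classes 3 to 7 (SEMA, a digit and a letter), 9 plexins (PLXN, a letter and a digit) and the neuropilins NRP1 and NRP2. The decrease of SEMA3F after BCL9 knockdown prompted the choice of the family, so its own values are given as a description without a test. The other members were included whatever their values, and the question is whether family and receptors share that decrease.

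DCIS.COM, an established line of human breast cells with basal features, serves as a model of ductal carcinoma in situ, the breast lesion in which tumor cells still lie within the ducts. Both groups were transduced with a lentiviral PLKO.1 vector, which carried a non-silencing shRNA in the NS control cells (n = 3) and an shRNA against BCL9 in the BCL9 KD cells (n = 3), with a T75 flask for each replicate in medium with horse serum. BCL9 is a co-activator of β-catenin in Wnt signaling. The comparison rests on a single cell line, and whether the flasks came from separate transductions is not given in the sources used here, so the p-values measure the spread between flasks.

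Semaphorins are read by plexins, large transmembrane receptors whose cytoplasmic part acts on small GTPases and so on the cytoskeleton and cell adhesion. Class 3 semaphorins are secreted, and most of them need a neuropilin as the ligand-binding co-receptor of a type A plexin. Semaphorins of classes 4 to 6 are membrane-bound, and SEMA7A is held at the membrane by a GPI anchor and also binds integrins. SEMA3F and SEMA3B lie on the short arm of chromosome 3, a region often lost in carcinomas, and both are known as candidate tumor suppressors.

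The deposited expression values are FPKM, which scale the read count of a gene to its length and to the depth of the sample. The samples held between 15222452 and 26949026 counted reads. Of the 31 members, 24 had a mean of at least 0.5 FPKM over the 6 samples and were tested, with limma on log2(FPKM + 0.5) fitted on all 13745 genes past that filter and Benjamini-Hochberg adjustment over all of them. A member was called at an adjusted p under 0.05. Because of the added 0.5 FPKM, fold changes of weakly expressed genes understate the ratio of their FPKM. BCL9 itself fell from 5.94 ± 0.522 FPKM in NS control to 2.74 ± 0.139 FPKM in BCL9 KD cells (SD, n = 3 each). Basal mammary markers (6 of 6) and epithelial markers (4 of 4) reached 0.5 FPKM. Of 4 luminal hormone-responsive markers, 2 reached it (FOXA1 and PRLR), while ESR1 and PGR did not. None of 4 leukocyte markers and 1 of 4 each of the fibroblast and endothelial markers reached it. The summed FPKM of the endothelial markers ran from 1.84 to 2.40 in NS control and from 3.16 to 3.97 in BCL9 KD samples, with CDH5, VWF and TEK below 0.5 FPKM. That of the fibroblast markers ran from 0.542 to 0.609 and from 0.634 to 0.743, and that of the leukocyte markers from 0 to 0.0059 and from 0.0583 to 0.0762. The epithelial markers summed to 577 to 688 FPKM in NS control and 530.1 to 559.9 FPKM in BCL9 KD samples. The part of these shifts in the results was not tested.

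The promoters of SEMA3F, the gene that prompted the comparison, and of SEMA3D, the member with the largest change in the opposite direction, are shown as the 250 bases before a RefSeq start in GRCh38.p14, 5′ to 3′ on the strand of the gene. Capitals mark a match to any of 3 motifs searched on both strands: TTCNNNGAA (the palindrome bound by STAT factors), CTTTGA (a core of the sites of TCF/LEF factors, the partners of β-catenin) and CAGGTG (an E-box). The SEMA3F window lies on the plus strand at chr3:50154808-50155057 and ends just inside the deposited gene, and the SEMA3D window lies on the minus strand at chr7:85187057-85187306.
SEMA3F: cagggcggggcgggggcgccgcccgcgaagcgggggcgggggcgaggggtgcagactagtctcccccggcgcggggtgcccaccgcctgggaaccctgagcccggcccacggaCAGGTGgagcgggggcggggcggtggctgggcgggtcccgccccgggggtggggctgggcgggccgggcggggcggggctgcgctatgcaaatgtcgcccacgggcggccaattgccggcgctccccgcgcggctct
SEMA3D: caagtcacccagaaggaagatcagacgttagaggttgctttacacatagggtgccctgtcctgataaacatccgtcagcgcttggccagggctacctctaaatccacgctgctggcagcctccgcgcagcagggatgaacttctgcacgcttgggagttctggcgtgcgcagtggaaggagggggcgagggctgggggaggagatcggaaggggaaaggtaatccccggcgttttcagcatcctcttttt
The SEMA3F sequence has a GC content of 82.0% and holds CAGGTG once, and the SEMA3D sequence has a GC content of 57.6% and no match. Of the other RefSeq windows of SEMA3F, 1 holds CTTTGA. Among the 27 members with a RefSeq promoter, TTCNNNGAA was found for 1 (SEMA3E), CTTTGA for 5 and CAGGTG for 7, in windows that reach from 250 bases before the start to 50 bases past it. Counted by window, they were found in 2.08%, 10.4% and 16.7% of the 48 windows of these members, beside 7.66%, 12.9% and 20.6% of all 35116 windows. These are matches of letters and not measured binding sites.

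SEMA3F (ENSG00000001617) lies on chromosome 3 of GRCh38 from 50155045 to 50189075 on the plus strand and encodes a secreted ligand that binds mainly NRP2. In the order of replicates 1, 2 and 3, kept for all members, it was at 12.5, 11.8 and 10.7 FPKM in NS control cells and at 7.33, 6.86 and 6.61 FPKM in BCL9 KD cells. The groups did not overlap, and the log2 fold change was −0.71 (standard error, SE, 0.0848). The values rest on 787 to 1372 reads in NS control and 500 to 892 reads in BCL9 KD samples. After each sample was corrected for the GC content of the transcripts, the log2 fold change was −0.63. Its antisense gene SEMA3F-AS1 held 3 to 12 reads a sample. In RNA from whole flasks, fewer cells that express a gene and less RNA per cell cannot be told apart.

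**Figure D1:**
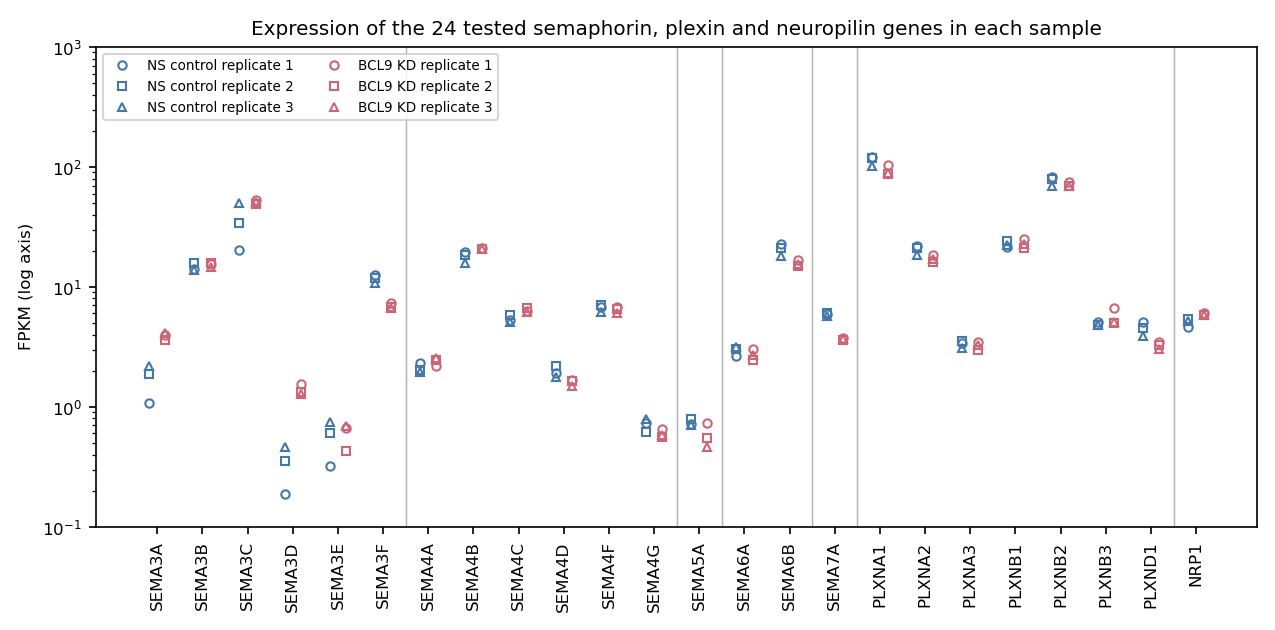
FPKM on a log axis of each of the 24 tested members in every sample, with NS control in blue and BCL9 KD in red, a point for each replicate and vertical lines between semaphorin classes, plexins and NRP1. SEMA3F and SEMA7A sit lower in all BCL9 KD samples, SEMA3A and SEMA3D sit higher, and PLXNA1 and PLXNB2 have the highest values in either group.

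Of the 23 other tested members, SEMA7A fell with SEMA3F, SEMA3A and SEMA3D rose, and 20 did not pass the test, so that 3 of 23 (13.0%) were called. SEMA3D passed the filter only through its BCL9 KD values, and with no filter on low values neither SEMA3A nor SEMA3D was called. Of all genes tested, 2.91% were called lower and 2.96% higher, 5.87% in either direction. The log2 fold change was negative for 12 and positive for 11 of these 23 members, with a median of −0.04, beside a median of 0.04 over all tested genes. The groups did not overlap for 10 of them, 5 with the BCL9 KD values below those of NS control and 5 with them above, beside 16.4% and 17.8% of all tested genes. None of the 7 tested plexins and not NRP1 was called. An unadjusted limma p under 0.05 was reached by 10 of the 23 members, beside 27.5% of all tested genes. Among these 10 were 3 of the 7 plexins (PLXNA1, PLXNA2 and PLXND1) and NRP1.

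**Figure D2:**
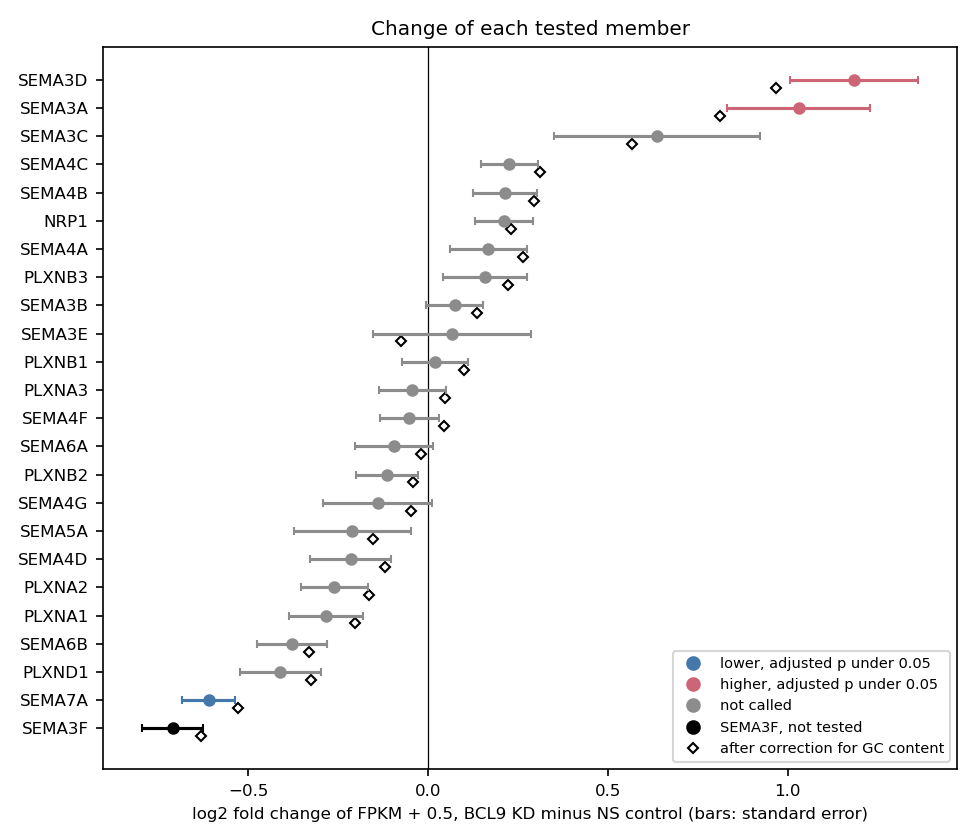
Log2 fold change of FPKM + 0.5 (BCL9 KD minus NS control) of each tested member with its standard error as a bar, ordered by size, and the value after GC correction as an open diamond. Blue marks lower and red higher at an adjusted p under 0.05, and black marks SEMA3F, which is shown without a test. The changes run from −0.71 for SEMA3F to 1.18 for SEMA3D, and most members lie near 0.

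Within class 3, the secreted ligands, SEMA3D and SEMA3A moved in the opposite direction to SEMA3F. SEMA3D (ENSG00000153993) was at 0.186, 0.356 and 0.464 FPKM in the NS control replicates and at 1.54, 1.32 and 1.29 FPKM in the BCL9 KD replicates, from 34 to 58 and from 163 to 286 reads. Each BCL9 KD value was above each NS control value, and the mean was 4.13 times as high. The change on the log2 scale was 1.18 (SE 0.179, adjusted p by limma = 0.0222), and 0.97 after GC correction (adjusted p by limma = 0.00851). The mean reached the filter through the BCL9 KD values alone (a mean of 0.335 FPKM in NS control and 1.38 FPKM in BCL9 KD cells), so its test is conditioned on the change. With no filter the adjusted p by limma was 0.0758.

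SEMA3A (ENSG00000075213), the ligand of NRP1 first known for the collapse of nerve growth cones, was at 1.07, 1.87 and 2.19 FPKM in the NS control replicates and at 3.95, 3.64 and 4.13 FPKM in the BCL9 KD replicates. NS control replicate 1 had the lowest value, and the groups did not overlap. Its log2 fold change was 1.03 (SE 0.199, adjusted p by limma = 0.0376). It was 0.81 after GC correction (adjusted p by limma = 0.00945) and 0.80 without NS control replicate 1 (adjusted p by limma = 0.0204). Without the filter on low values the adjusted p by limma was 0.111.

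SEMA3C (ENSG00000075223) was the most abundant class 3 member, at 20.3, 34.1 and 49.6 FPKM in the NS control replicates and at 52.9, 48.8 and 50.8 FPKM in the BCL9 KD replicates. The groups overlapped, because NS control replicate 3 lay within the BCL9 KD range, and the spread was wide in NS control and narrow in BCL9 KD cells. The log2 fold change of 0.64 (SE 0.287) did not pass the test (adjusted p by limma = 0.206). It was 0.30 without NS control replicate 1 (adjusted p by limma = 0.259) and 0.94 without NS control replicate 3 (adjusted p by limma = 0.0423).

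SEMA3B (ENSG00000012171), 113 kb from SEMA3F on the same strand, was at 14.0, 15.7 and 13.8 FPKM in NS control and at 15.5, 15.9 and 14.5 FPKM in BCL9 KD replicates. The groups overlapped, with a log2 fold change of 0.07 (adjusted p by limma = 0.559). SEMA3E (ENSG00000170381), which binds PLXND1 without a neuropilin, was at 0.320, 0.601 and 0.750 FPKM in NS control and at 0.671, 0.429 and 0.691 FPKM in BCL9 KD replicates. It overlapped as well, with a log2 fold change of 0.07 (adjusted p by limma = 0.866), and the sign turned under the GC correction (−0.07), under quantile normalization (−0.01) and without NS control replicate 1 (−0.11). SEMA3G was too low for the test, at 0.302 to 0.375 FPKM in NS control and 0.170 to 0.268 FPKM in BCL9 KD samples.

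The share of SEMA3F in class 3 expression, which restates the decrease that prompted the comparison and is given as a description, was lower in BCL9 KD cells. SEMA3F made up 25.7%, 18.2% and 13.8% of the summed class 3 FPKM in the NS control replicates and 8.93%, 8.89% and 8.44% in the BCL9 KD replicates. The FPKM ratio of SEMA3F to SEMA3A was 11.7, 6.32 and 4.88 in the NS control replicates and 1.85, 1.88 and 1.60 in the BCL9 KD replicates. The ratio of SEMA3F to SEMA3B, its neighbour with a similar GC content, was 0.893, 0.752 and 0.774 in NS control and 0.473, 0.431 and 0.455 in BCL9 KD replicates. SEMA3C was the larger part of the sum in all BCL9 KD samples, at 63.3% to 64.9%, and ran from 41.6% to 63.7% in NS control samples, which overlapped them.

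SEMA3C, SEMA3E, SEMA3A and SEMA3D lie in this order on chromosome 7 of GRCh38 between 80742538 and 85186855, all on the minus strand. This interval was picked out after the values had been seen. It holds 7 protein-coding genes, and the 4 semaphorins are those that passed the filter, while HGF, CACNA2D1 and PCLO had a mean below 0.5 FPKM. The log2 fold changes along it were 0.64, 0.07, 1.03 and 1.18, and SEMA3E between the other members lay nearest to 0.

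The chromosome 7 semaphorins also had the lowest GC content of the tested members. The annotated transcripts had a GC content of 38.8% for SEMA3A, 38.9% for SEMA3D, 40.7% for SEMA3E and 42.4% for SEMA3C, beside 61.5% for SEMA3F and 60.9% for SEMA7A. The deviation of NS control replicate 1 from the mean of the 6 samples went with GC content (Spearman correlation of 0.568 across genes), and the other samples had values from −0.350 to 0.103. Over the 24 tested members the log2 fold change had a Spearman correlation of −0.43 with GC content, beside −0.31 over all tested genes, both before GC correction. After the correction it was −0.37 for the members, and the value over all tested genes was not computed. These points share the same 6 libraries and are given as a description. After GC correction, 2 members other than SEMA3F were called lower (SEMA7A and SEMA6B) and 3 higher (SEMA3A, SEMA3D and SEMA4B), where 5.58% of all genes were called lower and 7.59% higher. Here too, SEMA3D passed the filter on low values only through its BCL9 KD values.

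**Figure D3:**
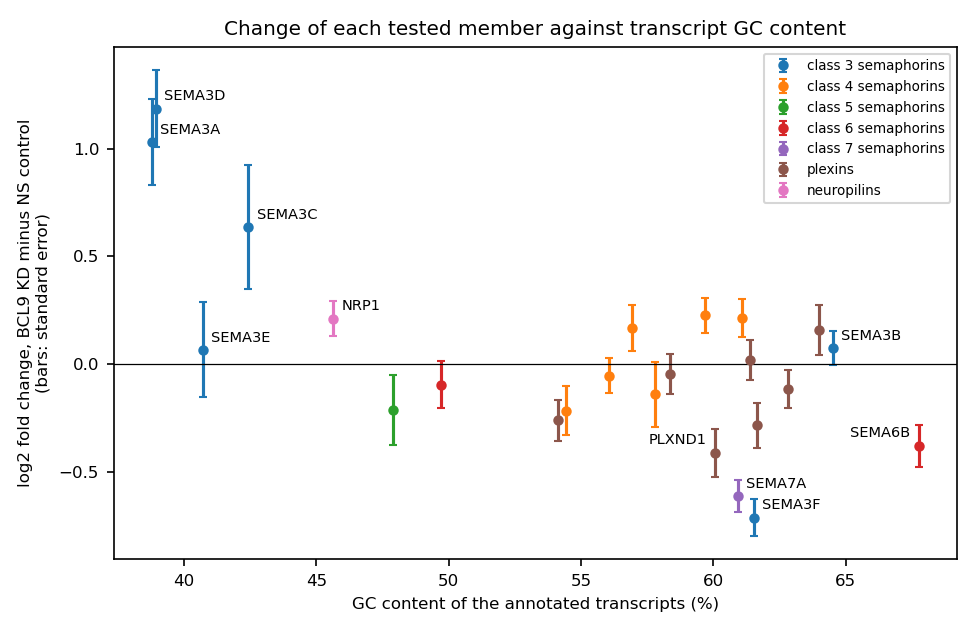
Log2 fold change (BCL9 KD minus NS control) of each tested member, with its standard error as a bar, against the GC content of its transcripts in percent, colored by semaphorin class or receptor family. SEMA3A, SEMA3D, SEMA3E and SEMA3C have GC contents from 38.8% to 42.4% and changes from 0.07 to 1.18. SEMA3F and SEMA7A sit lowest, at GC contents of 61.5% and 60.9%.

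SEMA7A (ENSG00000138623), on chromosome 15 from 74409289 to 74434467, was the member that fell with SEMA3F. It was at 5.99, 6.0 and 5.70 FPKM in the NS control replicates and at 3.78, 3.58 and 3.70 FPKM in the BCL9 KD replicates. The groups stood well apart, with a spread of at most 0.168 FPKM within a group (SD, n = 3). The change on the log2 scale was −0.61 (SE 0.0735, adjusted p by limma = 0.0124), and −0.53 after GC correction (adjusted p by limma = 0.0157). Neither RefSeq promoter window of SEMA7A held any of the 3 motifs.

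The calls of SEMA7A, SEMA3A and SEMA3D depended on single samples, as did the count over all genes. Without NS control replicate 2, BCL9 KD replicate 2 or BCL9 KD replicate 3, only 12, 13 and 5 of all genes were called, and SEMA7A had adjusted p-values by limma of 0.0829, 0.102 and 0.106. Those of SEMA3A were 0.133, 0.155 and 0.168, and 0.0715 without BCL9 KD replicate 1. Those of SEMA3D were 0.0979, 0.123 and 0.128. The log2 fold changes kept their sign and ran from −0.63 to −0.59 for SEMA7A, from 0.80 to 1.19 for SEMA3A and from 1.05 to 1.30 for SEMA3D.

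Of the 6 class 4 semaphorins, none passed the test, and their log2 fold changes lay between −0.21 and 0.23. SEMA4B (ENSG00000185033) was at 19.6, 18.4 and 15.9 FPKM in NS control and at 21.1, 20.6 and 20.7 FPKM in BCL9 KD replicates, without overlap. Its log2 fold change was 0.21 (adjusted p by limma = 0.174), and 0.30 after GC correction (adjusted p by limma = 0.0246). SEMA4C (ENSG00000168758), a ligand of PLXNB2, was at 5.33, 5.79 and 5.10 FPKM in NS control and at 6.32, 6.69 and 6.21 FPKM in BCL9 KD replicates. Its groups did not overlap either, with a log2 fold change of 0.23 (adjusted p by limma = 0.127).

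SEMA4D (ENSG00000187764), the ligand of PLXNB1, was at 1.90, 2.19 and 1.76 FPKM in NS control and at 1.68, 1.65 and 1.49 FPKM in BCL9 KD replicates, without overlap and with a log2 fold change of −0.21 (adjusted p by limma = 0.262). SEMA4A was at 2.32, 2.01 and 1.95 FPKM in NS control and at 2.21, 2.46 and 2.57 FPKM in BCL9 KD replicates. SEMA4F was at 6.74, 7.06 and 6.21 FPKM in NS control and at 6.73, 6.48 and 6.04 FPKM in BCL9 KD replicates. The values of SEMA4A and SEMA4F overlapped between the groups. SEMA4G was at 0.738, 0.612 and 0.788 FPKM in NS control and at 0.657, 0.558 and 0.583 FPKM in BCL9 KD replicates. It shares its locus with MRPL43 on the opposite strand, which held 450 to 800 reads against 48 to 88 for SEMA4G. Whether the counting used strand is not given in the sources used here, so reads of the pair cannot be told apart.

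SEMA6B (ENSG00000167680), a membrane-bound ligand of type A plexins on chromosome 19, had the highest mean FPKM of the semaphorins outside class 3 in NS control cells. It was at 22.7, 21.1 and 18.2 FPKM in NS control and at 16.7, 14.9 and 15.6 FPKM in BCL9 KD replicates, so that all BCL9 KD values were lower. The log2 fold change of −0.38 (SE 0.0978) missed the threshold (adjusted p by limma = 0.0661). It passed after GC correction (−0.33, adjusted p by limma = 0.0264), with voom on the recovered reads (adjusted p by limma = 0.0448) and without NS control replicate 3 (−0.46, adjusted p by limma = 0.0323).

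SEMA6A, a ligand of type A plexins, was at 2.66, 3.05 and 3.14 FPKM in NS control and at 3.04, 2.46 and 2.70 FPKM in BCL9 KD replicates. SEMA5A, whose extracellular part carries thrombospondin repeats, was at 0.724, 0.793 and 0.711 FPKM in NS control and at 0.730, 0.549 and 0.459 FPKM in BCL9 KD replicates. The groups of SEMA6A and SEMA5A overlapped, with adjusted p-values by limma of 0.591 and 0.427. SEMA6C was at 0.106 to 0.283 FPKM in NS control and 0.297 to 0.516 FPKM in BCL9 KD samples, on 14 to 55 reads, and was not tested. SEMA5B held 0 or 1 read and SEMA6D 0 to 6 reads in a sample, too few for a level.

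Among the receptors, the plexins PLXNA1 and PLXNB2 had the highest levels of the whole family by mean FPKM in both groups. PLXNA1 (ENSG00000114554), a signaling receptor for class 3 semaphorins bound to neuropilins, was at 121, 119 and 100.9 FPKM in NS control and at 103, 87.6 and 88.8 FPKM in BCL9 KD replicates. The groups overlapped, since BCL9 KD replicate 1 lay above NS control replicate 3. On the log2 scale the change was −0.28 (SE 0.103, adjusted p by limma = 0.134). PLXNA2 (ENSG00000076356) was at 22.1, 21.2 and 18.5 FPKM in NS control and at 18.5, 16.0 and 16.9 FPKM in BCL9 KD replicates. NS control replicate 3 and BCL9 KD replicate 1 nearly met, and the log2 fold change was −0.26 (adjusted p by limma = 0.132). PLXNA3 was at 3.40, 3.52 and 3.10 FPKM in NS control and at 3.44, 2.98 and 3.26 FPKM in BCL9 KD replicates. It overlaps LAGE3 on the opposite strand, which held 232 to 494 reads, and PLXNA4 held 0 to 3 reads.

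PLXND1 (ENSG00000004399), the receptor of SEMA3E, was at 5.08, 4.53 and 3.91 FPKM in NS control and at 3.49, 3.27 and 3.01 FPKM in BCL9 KD replicates. The groups did not overlap, and the log2 fold change of −0.41 (SE 0.112) missed the threshold (adjusted p by limma = 0.0742). It passed with voom on the recovered reads (adjusted p by limma = 0.0397) and without NS control replicate 3 (adjusted p by limma = 0.0388). With voom, 3 members other than SEMA3F were called lower (SEMA7A, PLXND1 and SEMA6B) and 2 higher (SEMA3A and SEMA3D), where 5.01% of all genes were called lower and 5.19% higher. The call of SEMA3D is conditioned on the change, since it passed the filter only through its BCL9 KD values.

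The type B plexins, which bind class 4 semaphorins, overlapped between the groups. PLXNB2 (ENSG00000196576) was at 82.4, 79.5 and 69.5 FPKM in NS control and at 75.6, 68.7 and 69.0 FPKM in BCL9 KD replicates, with a log2 fold change of −0.11 (adjusted p by limma = 0.418). PLXNB1 (ENSG00000164050) was at 21.3, 24.2 and 22.5 FPKM in NS control and at 25.3, 20.9 and 22.9 FPKM in BCL9 KD replicates. Its log2 fold change was 0.02 (adjusted p by limma = 0.91). PLXNB3 was at 5.06, 4.82 and 4.79 FPKM in NS control and at 6.64, 4.97 and 5.08 FPKM in BCL9 KD replicates, where BCL9 KD replicate 1 alone stood out. The antisense gene U52111.14 and the gene SRPK3 overlap it, with 7 to 38 and 18 to 51 reads. PLXNC1, the receptor of SEMA7A, was at 0.0891 to 0.206 FPKM in NS control and 0.191 to 0.271 FPKM in BCL9 KD samples and was not tested. CEP83 overlaps it on the opposite strand with 110 to 353 reads.

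Of the neuropilins, NRP1 (ENSG00000099250) was at 4.63, 5.35 and 5.18 FPKM in NS control and at 6.03, 5.86 and 5.86 FPKM in BCL9 KD replicates. Each BCL9 KD value was above each NS control value, and the log2 fold change of 0.21 (SE 0.0813) did not pass the test (adjusted p by limma = 0.151). NRP2 (ENSG00000118257), the neuropilin that SEMA3F binds, was at 0.225, 0.189 and 0.293 FPKM in NS control and at 0.273, 0.283 and 0.276 FPKM in BCL9 KD replicates, below the filter. The FPKM ratio of NRP1 to NRP2 ran from 17.7 to 28.4 in NS control and from 20.7 to 22.1 in BCL9 KD samples.

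In the order of levels in NS control cells, PLXNA1 (mean of 114 FPKM) and PLXNB2 (77.1 FPKM) did not overlap each other or the next member. SEMA3C, PLXNB1, SEMA6B, PLXNA2 and SEMA4B followed, and each of them overlapped its neighbour in the order over the 3 replicates. SEMA3B (14.5 FPKM), SEMA3F (11.7 FPKM) and SEMA4F (6.67 FPKM) came next without overlap between neighbours. SEMA7A, SEMA4C, NRP1, PLXNB3 and PLXND1 followed with overlapping neighbours, between 5.90 and 4.51 FPKM. Below them, PLXNA3 and SEMA6A overlapped, as did SEMA4A, SEMA4D and SEMA3A in turn, and SEMA5A, SEMA4G, SEMA3E and SEMA3D in turn. SEMA3D had the lowest mean of the tested members, 0.335 FPKM. The summed FPKM of the plexins was 223 to 261 in NS control and 205 to 237 in BCL9 KD samples, and that of all semaphorins was 117 to 138 and 137 to 146.

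Of 63 other genes of the pathway (co-receptors, VEGF ligands of neuropilins, GTPases and their exchange factors, cytoplasmic effectors and the proprotein convertases that cut class 3 semaphorins), 45 were tested. Of these, 2 were lower and none was higher by limma, which is 4.44% called beside 5.87% of all tested genes. An unadjusted p under 0.05 was reached by 20 of 45, beside 27.5% of all tested genes. The groups did not overlap for 20 of them, with BCL9 KD lower for 14 and higher for 6, beside 16.4% and 17.8% of all tested genes. Their median log2 fold change was −0.06.

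DPYSL2 (CRMP2), a tubulin-binding mediator of the response to SEMA3A, was at 22.6, 23.1 and 19.7 FPKM in NS control and at 14.8, 12.8 and 12.3 FPKM in BCL9 KD replicates. The groups did not overlap, with a log2 fold change of −0.70 (SE 0.0999, adjusted p by limma = 0.0198). Without NS control replicate 2, BCL9 KD replicate 2 or BCL9 KD replicate 3 its adjusted p by limma was 0.102, 0.119 and 0.124. FARP2, an exchange factor that binds PLXNA1, was at 5.56, 5.41 and 5.31 FPKM in NS control and at 4.44, 3.63 and 3.78 FPKM in BCL9 KD replicates. Its log2 fold change of −0.42 was at the threshold (adjusted p by limma = 0.0497), and the adjusted p was 0.0515 after GC correction and between 0.038 and 0.206 when a sample was left out, under 0.05 only without BCL9 KD replicate 1.

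FURIN, MET and VEGFA were named for their role whatever their values. FURIN, the convertase that cleaves class 3 semaphorins, was at 41.8, 38.7 and 35.6 FPKM in NS control and at 42.8, 42.1 and 41.6 FPKM in BCL9 KD replicates. Its log2 fold change was 0.13 (adjusted p by limma = 0.325), and 0.20 after GC correction (adjusted p by limma = 0.0452). MET, a receptor kinase that couples to type B plexins, was at 20.6, 26.4 and 25.2 FPKM in NS control and at 21.1, 19.1 and 18.9 FPKM in BCL9 KD replicates. NS control replicate 1 overlapped the BCL9 KD values, and the log2 fold change was −0.28 (adjusted p by limma = 0.152). Without that sample it was −0.38 (adjusted p by limma = 0.0464). VEGFA, the ligand that competes with class 3 semaphorins for NRP1, was at 9.51, 10.9 and 10.7 FPKM in NS control and at 10.2, 10.7 and 10.5 FPKM in BCL9 KD replicates, and these overlapped. PCSK5 and PCSK6 of the other convertases and VEGFC of the other VEGF ligands were chosen after their values were seen. They had log2 fold changes of 0.39, −0.35 and 0.47 without overlap. None of them passed the test (adjusted p by limma = 0.112, 0.10015 and 0.0923), PCSK5 and PCSK6 passed with voom on the recovered reads, and PCSK5 and VEGFC passed after GC correction.

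**Figure D4:**
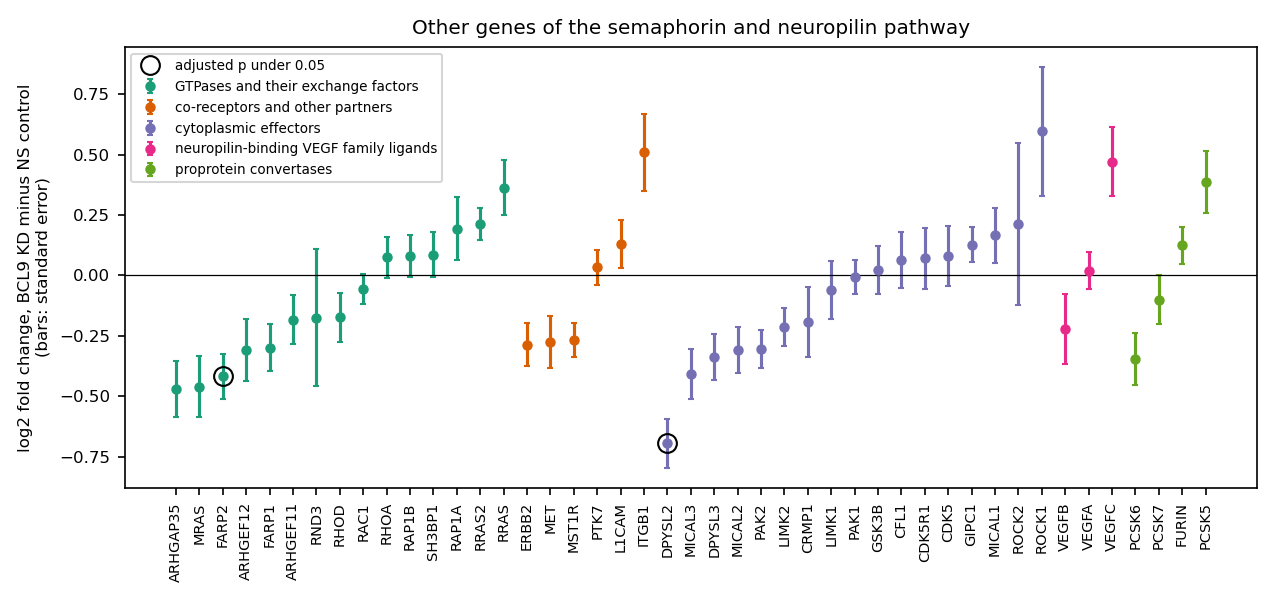
Log2 fold change (BCL9 KD minus NS control) of the 45 tested genes of the pathway outside the family, with standard errors as bars, colored and grouped by role and ordered by size within a role. Circles mark an adjusted p under 0.05. DPYSL2 at −0.70 and FARP2 at −0.42 are circled, and the other genes lie between −0.47 and 0.60.

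The decrease of SEMA3F was also set beside its neighbours on chromosome 3. Of 38 protein-coding genes within 500000 bases of SEMA3F, 25 were tested, with a median log2 fold change of −0.09, beside 0.04 over all tested genes. The change was negative for 16 and positive for 9 of them, where 44.6% of all tested genes were negative. All BCL9 KD values lay below those of NS control for 6 and above them for 3, beside 16.4% and 17.8% of all tested genes. A single gene of the 25 was called, a share below the 5.87% of all tested genes. It was GNAI2, an inhibitory G protein α-subunit 71.2 kb from the start of SEMA3F, and was higher in BCL9 KD cells. It was at 25.9, 21.6 and 21.6 FPKM in NS control and at 30.1, 31.0 and 31.0 FPKM in BCL9 KD replicates, without overlap. Its log2 fold change was 0.41 (SE 0.0872, adjusted p by limma = 0.0456), and the adjusted p was between 0.0173 and 0.195 when a sample was left out, under 0.05 only without NS control replicate 1.

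**Figure D5:**
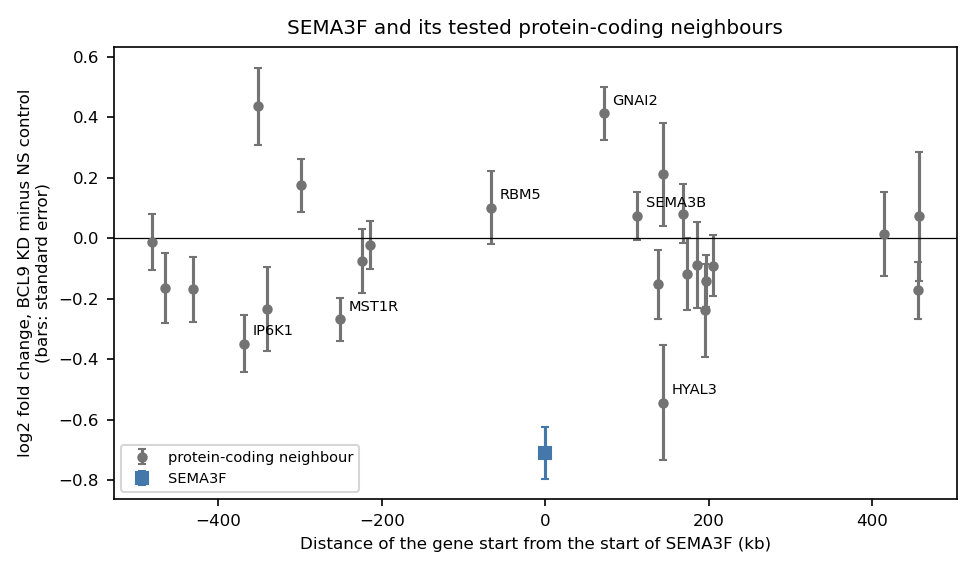
Log2 fold change (BCL9 KD minus NS control) with standard error bars of SEMA3F (blue square) and its 25 tested protein-coding neighbours (grey), against the distance of each gene start from that of SEMA3F in kb. SEMA3F at −0.71 lies lowest, and the neighbours, SEMA3B at 0.07 among them, lie between −0.54 and 0.44.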

How the data were processed

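RNA was sequenced as paired-end libraries from 3 NS control and 3 BCL9 KD flasks, as the labels give them, while the methods of the study name 2 biological replicates per condition for its differential test. The authors aligned reads with STAR to hg38, counted them per gene with HTSeq 0.6.1 and deposited FPKM together with the gene length in bases. Their differential test took counts, so limma 3.58.1 (R 4.3.3) on log2(FPKM + 0.5), with its empirical Bayes trend, was used here, two-sided. FPKM scaled by gene length and sample depth gave whole reads (tolerance 0.1) for 100% of the values under 1000 reads, and voom was run on the recovered reads. The GC correction subtracted a loess curve (span 0.3) of each sample against transcript GC content from GRCh37, known for 98.8% of the genes tested. Alternatives were voom, quantile normalization, median-of-ratios scaling, 1 or 0.1 FPKM added before the log, the filter dropped or raised to 1 FPKM, a replicate block, the GC correction with and without it, and leaving out each sample. The fit was also run on simulated counts with a fixed dispersion and no GC effect. That setting is simpler than these data, so it does not vouch for the calls made here. Replicates within a group had Pearson correlations of log2 values of 0.964 to 0.987. Members, pathway genes, motifs and tests were chosen with earlier results of these data known. Named were all members, pathway genes and SEMA3F neighbours that were called, FURIN, MET and VEGFA whatever their values, and overlapping genes with reads where these bear on a member. No RefSeq promoter was used for NRP1, SEMA3A, SEMA6A and SEMA6B. No molecular identifiers are named for these libraries, so the read numbers speak to counting error only.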

Additional observations from a re-analysis of the deposited data

How the results depend on the processing

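The direction of SEMA3F, SEMA7A, SEMA3A and SEMA3D was kept under every alternative that gave a value. Without SEMA3F, whose decrease prompted the choice, 1 family member was called lower, against 3 with voom, 2 with the GC correction and 0 with the correction and replicate block. This number ran from 0 (without NS control replicate 2, BCL9 KD replicate 2 or BCL9 KD replicate 3) to 3 (without NS control replicate 3) when a sample was left out. The number called higher was 2, and it became 1 at a mean FPKM of at least 1 and 0 without a filter, and ran from 0 to 3 when the same samples were left out. The number of 2 includes SEMA3D, which passed the filter on low values only through its BCL9 KD values. SEMA3D, SEMA3E, SEMA4G and SEMA5A have no value at a mean of at least 1 FPKM. Of the pathway genes, the number lower was 2, and it became 0 without a filter, 1 with median-of-ratios scaling, 6 with voom, 4 with the GC correction and 1 with that and the block, with a range of 0 to 7 when a sample was left out. The number higher was 0, and it became 1 with voom and 5 with the GC correction, with a range of 0 to 2. Of all tested genes 807 were called, against 142 without a filter, 536 with median-of-ratios scaling, 1403 with voom, 1789 with the GC correction and 448 with that and the block, with a range of 5 to 1729. The cause was not tested. The median log2 fold change of the tested family members, here with SEMA3F included, was −0.05 and ran from −0.11 (quantile normalization) to 0.01 (GC correction).

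With the replicate number as a block, 0 family members were called lower, 0 higher and 0 pathway genes lower, as were 0 of all genes by limma, where 3235 had an unadjusted p under 0.05. Same-numbered samples showed no common deviation (correlations of −0.147, −0.0884 and −0.00287 across genes), so the numbers give no pairing.

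Small changes turned sign. SEMA3E was at −0.0106 with quantile normalization, −0.0742 with the GC correction, with or without the block, and −0.106 to 0.198 when a sample was left out. SEMA4F (0.0446) and PLXNA3 (0.0472) turned with the GC correction, with or without the block, and PLXNA3 ran from −0.0896 to 0.00497 when a sample was left out. PLXNB1 was at −0.0243 with median-of-ratios scaling and −0.0496 to 0.0854 when a sample was left out. VEGFA was at −0.00544 with quantile normalization, −0.0227 with median-of-ratios scaling and −0.0386 to 0.0543 when a sample was left out. Over 460 values of 29 genes, SEMA3F left out, 397 kept direction and call, 39 lost the call, 9 gained it and 15 turned sign. The 7 members below the filter on mean FPKM held 0 to 106 reads in a sample and have no test.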
